A study of Mus musculus with 12 samples.

Results

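The genes described here are 6 members of the prostaglandin pathway, taken by name from a table of 12975 genes: the cyclooxygenases Ptgs1 and Ptgs2, the terminal synthases Ptges, Ptgds and Ptgis, and the prostaglandin E2 receptor Ptger4. All 6 were in the table. They were chosen by name, though with earlier results of these data known. They were read in RiboTag pull-downs, in which a tagged ribosomal protein allows the ribosomes of chosen cells, and the mRNA bound to them, to be precipitated. The mice had the Rpl22HA allele and a transgenic CreERT2, a Cre that tamoxifen activates, expressed in enteric glial cells, the support cells of the gut nervous system, so that Rpl22 there carries an HA tag. Every mouse in all 4 groups received 2 intraperitoneal injections of tamoxifen at 10 to 12 weeks of age and was taken 3 to 4 weeks after the first. The small intestinal muscularis, the muscle coat with its nerve plexus, came from 3 naive mice (T0, animals 1, 2 and 4) and from 3 different mice killed 3 h after intestinal manipulation, a surgical handling of the bowel (T3, animals 1, 3 and 4). Lysate of each mouse was divided between an anti-HA antibody (HA) and a mouse IgG1 of no specificity for the tag (IgG), which gives the HA T0, HA T3, IgG T0 and IgG T3 groups of 3 libraries each. The IgG libraries hold RNA that stuck without the tag and serve as the background from the whole muscularis, and HA libraries contain such RNA as well.

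Prostaglandins are lipid mediators made from arachidonic acid, which phospholipases such as cytosolic phospholipase A2 (Pla2g4a) cut from membranes. COX-1, encoded by Ptgs1, is usually present at a steady level, whereas COX-2, encoded by Ptgs2, is induced by inflammatory and mechanical stimuli, and both make prostaglandin H2. Terminal synthases turn this product into prostaglandin E2 (Ptges), prostaglandin D2 (Ptgds) or prostacyclin (Ptgis), and the products act on G protein-coupled receptors such as EP4 (Ptger4). In the muscularis, prostaglandins are known to alter smooth muscle contraction and to contribute to the loss of motility after surgery.

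The libraries differed strongly in depth. HA libraries held 1221788 to 2870591 counts of unique molecular identifiers (UMIs, 1 per captured mRNA molecule), IgG T0 libraries 388214 to 1289833 and IgG T3 libraries 88136 to 248522. Levels are given in CPM, counts scaled to the library total. Where a gene had no count, up to 3 counts remain possible by counting error alone, equal to 1.05 CPM at the greatest depth and 34.0 CPM at the lowest. The 10 glial markers checked here, among them Sox10, S100b and Gfap, summed to 3670 to 4529 CPM in HA T0 and 178 to 242 CPM in IgG T0, and all 9 that could be tested were higher in HA at T0. At T3 they summed to 4459 to 5147 CPM in HA and 221 to 987 CPM in IgG, and 7 of 9 tested were higher in HA. The IgG T3 libraries thus held more glial marker RNA, on average, than those of IgG T0. The 4 markers of interstitial cells of Cajal, the pacemaker cells of the gut, also summed higher in HA T0 (3011 to 4066 CPM) than in IgG T0 (273 to 360 CPM), with 3 of 4 past the test, so that HA material was not limited to RNA of glial marker genes. As each library is a bulk pull-down, fewer cells of a type and less RNA per cell cannot be told apart.

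The promoters of the cyclooxygenases and of Ptger4 are shown because these genes were the 3 members that differed between the pull-downs in naive tissue, and because Ptgs2 is the member known as inducible. Each run gives the 250 bases before the annotated start, 5′ to 3′ along the strand of the gene, from RefSeq sequence of build GRCm38.p6, the mm10 assembly. RefSeq promoters were matched for 5 of the 6 members. Capitals mark matches, on either strand, to 1 of 6 short motifs. The C/EBP motif was searched as TTGCGCAA and the core of a cAMP response element as TGACG. The E-box was searched as CACGTG, the AP-1 motif as TGANTCA and the TATA box as TATAAA. The NF-kB type motif was read as 3 guanines, any 5 bases and 2 cytosines.
Ptgs2, chr1:150099781-150100030, plus strand: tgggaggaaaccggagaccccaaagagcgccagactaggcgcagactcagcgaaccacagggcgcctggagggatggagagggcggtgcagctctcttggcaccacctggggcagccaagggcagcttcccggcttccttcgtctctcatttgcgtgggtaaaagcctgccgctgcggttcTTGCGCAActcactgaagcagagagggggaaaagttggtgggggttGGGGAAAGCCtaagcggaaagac
Ptgs2, first 30 bases from the start, chr1:150100031-150100060, plus strand: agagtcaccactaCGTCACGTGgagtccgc
Ptgs1, chr2:36230176-36230425, plus strand: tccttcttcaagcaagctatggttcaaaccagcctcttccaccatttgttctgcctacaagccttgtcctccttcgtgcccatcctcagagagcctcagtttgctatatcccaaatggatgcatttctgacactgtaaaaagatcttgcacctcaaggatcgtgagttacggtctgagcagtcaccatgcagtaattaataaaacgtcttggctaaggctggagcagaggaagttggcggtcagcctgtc
Ptger4, chr15:5244188-5244437, minus strand: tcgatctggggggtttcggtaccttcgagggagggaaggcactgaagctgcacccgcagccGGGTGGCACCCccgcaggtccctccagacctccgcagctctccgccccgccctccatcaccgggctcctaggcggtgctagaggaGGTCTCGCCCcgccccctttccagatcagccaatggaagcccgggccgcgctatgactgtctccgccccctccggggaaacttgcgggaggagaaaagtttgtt

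Upstream of Ptgs2 the C/EBP letters began at base -69 and an NF-kB type match at base -23, while the cAMP core and the E-box overlapped by 2 bases just after the start. Over windows from 250 bases before to 50 bases after the start, the C/EBP letters occurred in 0.183% of 32851 promoters, against 50.8% for the NF-kB type, 20.8% for the cAMP core, 7.15% for the E-box, 7.81% for AP-1 and 13.6% for the TATA letters. Upstream of Ptgs1 none of the 6 was found, with 1 NF-kB type match at base 28 after the start, and its upstream run held 48% G and C against 61.6% for Ptgs2. Upstream of Ptger4 the matches were of the NF-kB type, 2 of them overlapping. Ptges held an NF-kB type match at base -38, and Ptgds an AP-1 match at base -35 beside one of the NF-kB type at base -22. These matches describe letters in a window and were not tested as binding sites.

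Levels of the members spanned a wide range of counts, which set what could be tested. Ptgs1 and Ptgis were counted in every library, with 15 to 147 counts and 5 to 266 counts, respectively. Ptgs2 had 0 to 23 counts, Ptgds 0 to 23, Ptger4 1 to 24 and Ptges 0 to 5, and these genes often failed the low-count filter, Ptges in all 5 comparisons and the other 3 in 3 of the 5. For such cases counts, pooled ratios and the fit without a filter are given in place of the main test. An exact permutation test of 3 against 3 libraries cannot go below p = 0.1, so it cannot pass a threshold of 0.05 for any single gene.

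**Figure D1:**
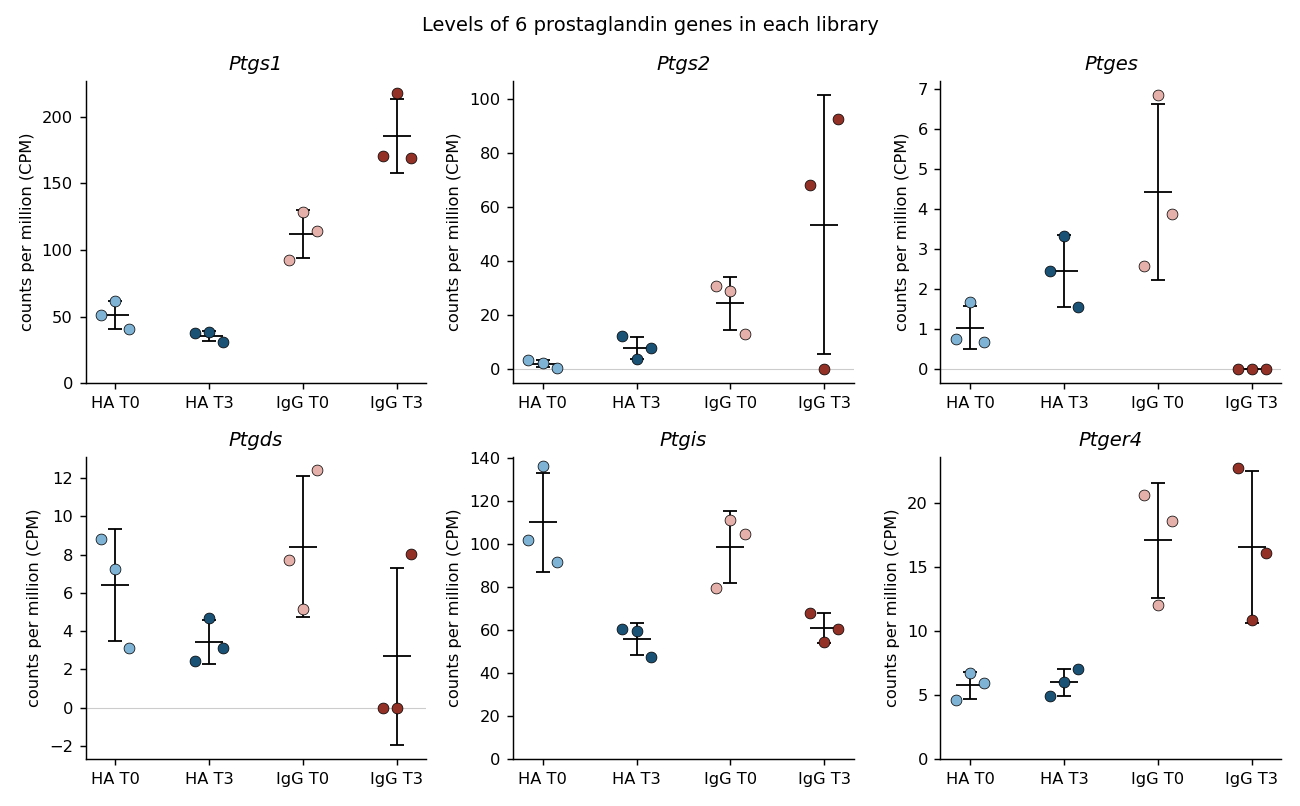
Level of each member in CPM (vertical axis) in the 12 libraries, with 1 point per library, the mean as a horizontal line and the SD as a bar (n = 3 per group; a bar may reach below 0). Ptgs1, Ptgs2 and Ptger4 lay lower in the HA than in the IgG libraries at T0, Ptgis overlapped between HA and IgG at both times, and Ptges was at 0 in all 3 IgG T3 libraries.

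The first question was which members the glial pull-down held above or below the background in naive muscularis. None was higher in HA. Of the 5 members tested, 3 were lower in HA, both cyclooxygenases and Ptger4, while 30.3% of all 9823 genes tested passed, 14.4% in the lower direction (edgeR quasi-likelihood test, adjusted p under 0.05). The median log2 fold change was -1.16 over the 5 members and -0.02 over all genes tested. Ptgs2 and Ptger4 passed the low-count filter by their IgG libraries, the group where they were high. The count of 3 of 5 and the median therefore cannot be read against all genes. Without the filter both genes were still lower in HA (adjusted p = 0.000267 and 0.0159, edgeR), in a fit where 24.3% of all genes passed.

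Ptgs1 (chr2:36230426-36252272, plus strand, in build GRCm38) was at 51.1, 62.0 and 40.8 CPM in the HA T0 libraries of animals 1, 2 and 4 and at 92.7, 129 and 114 CPM in their IgG libraries. HA was lower than IgG within each of the 3 animals, and all HA values lay below all IgG values, as in 20.1% of the genes tested. The log2 fold change was -1.16 (SE 0.24, adjusted p = 0.00227, edgeR), and all 13 alternatives passed the threshold, with adjusted p between 0.000122 and 0.0158.

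Ptgs2 (chr1:150100031-150108227, plus strand) was at 3.46, 2.24 and 0.697 CPM in HA T0, from 9, 4 and 2 counts, and at 30.9, 29.1 and 13.2 CPM in IgG T0, from 12, 17 and 17 counts. All HA values lay below all IgG values, as in 20.1% of the genes tested. Its log2 fold change of -3.42 (SE 0.57, adjusted p = 0.000530 by edgeR) was the lowest among the members tested, and it also passed in all 13 alternatives (adjusted p 2.28e-06 to 0.00359).

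Ptger4 (chr15:5206661-5244187, minus strand) was at 4.61, 6.71 and 5.92 CPM in HA T0 and at 20.6, 12.0 and 18.6 CPM in IgG T0. HA was again lower in every animal. The log2 fold change was -1.60 (SE 0.41, adjusted p = 0.00913, edgeR), and the call was lost without the IgG library of animal 4, the deepest of its group (adjusted p = 0.0660; 0.00628 to 0.0660 over 13 alternatives). The window in which Ptger4 reads were counted overlaps the gene Ttc33 on the opposite strand, and since no source says whether counting used strand, the value of Ptger4 is uncertain.

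Among the terminal synthases, Ptgis (chr2:167191805-167240604, minus strand) was at 102, 136 and 92.0 CPM in HA T0 and at 79.9, 111 and 105 CPM in IgG T0. These ranges overlapped, and its log2 fold change of 0.12 (SE 0.23, adjusted p = 0.726, edgeR) did not pass. The ratio of pooled counts, HA over IgG, was 1.04 with a 95% counting interval of 0.899 to 1.21. The counting window of Ptgis overlaps 1110018N20Rik, a transcript on the opposite strand, which leaves its value uncertain in the same way.

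Ptgds (chr2:25466709-25470046, minus strand), the lipocalin-type prostaglandin D synthase, was at 8.83, 7.26 and 3.14 CPM in HA T0 and at 7.73, 5.14 and 12.4 CPM in IgG T0. HA exceeded IgG in animals 1 and 2 and was below it in animal 4, and the log2 fold change of -0.55 (SE 0.54, adjusted p = 0.464, edgeR) did not pass. Ptges (chr2:30889471-30929863, minus strand), the microsomal prostaglandin E synthase, had 2, 3 and 2 counts in HA T0 and 1, 4 and 5 counts in IgG T0 and was too low for the test. Its HA values, 0.697 to 1.68 CPM, lay below the IgG values, 2.58 to 6.86 CPM, as did 18.5% of all genes in the table in this comparison. Without the filter its log2 fold change was -2.04 (SE 0.85, adjusted p = 0.0881, edgeR), in a fit where 24.3% of all genes passed.

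Markers of several other cell types were lower in HA as well. In naive tissue all 11 smooth muscle markers tested were lower in HA, with a median log2 fold change of -1.49, as were 6 of 6 for mesothelium (median -1.81), 6 of 7 for fibroblasts (median -1.13), 6 of 10 for neurons (median -1.32) and 3 of 11 for macrophages (median -0.75). Endothelial markers summed to 18.0 to 33.5 CPM in HA T0 and 54.1 to 74.4 CPM in IgG T0, and epithelial markers to 74.9 to 303 and 498 to 833 CPM. The part of these cell types in the values of Ptgs1, Ptgs2 and Ptger4 was not tested.

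**Figure D2:**
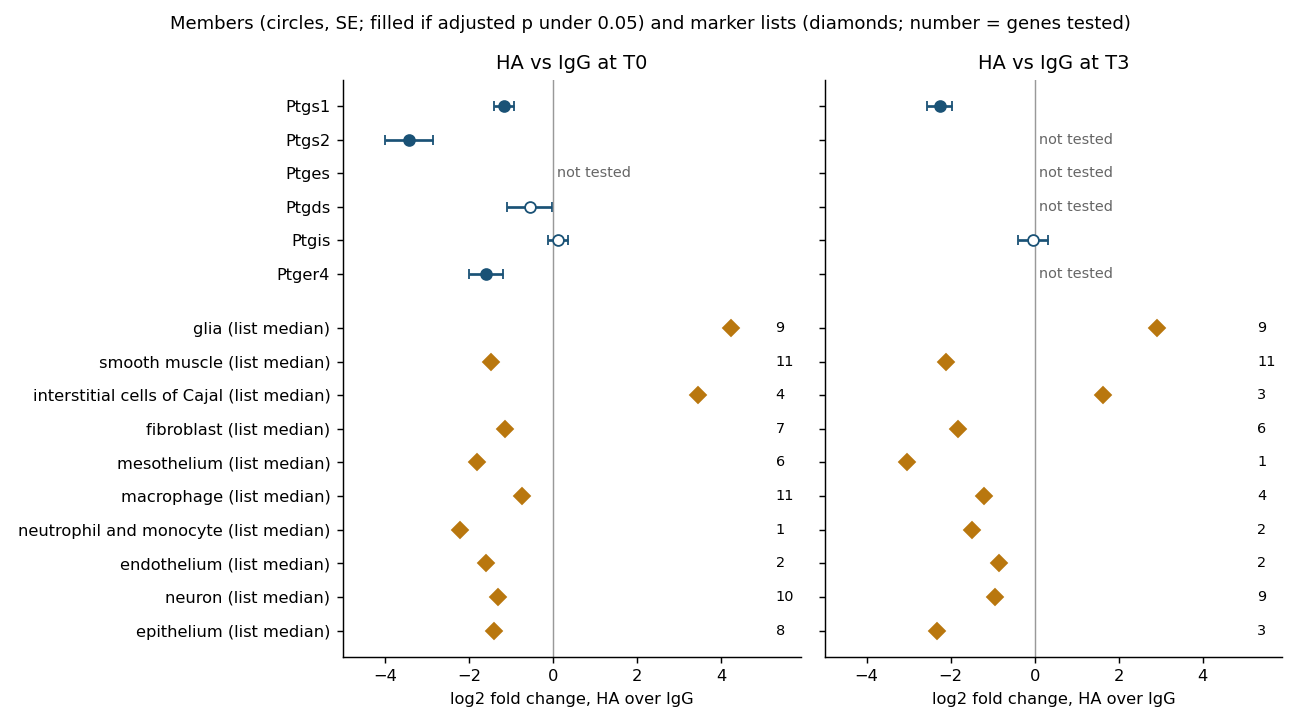
Log2 fold change of HA over IgG (horizontal axis) at T0 (left) and T3 (right) for the members (circles with SE, filled where the adjusted p was under 0.05) and the median of each marker list (diamonds, with the number of genes tested at the right). Ptgs1 lay at -1.16 at T0 and -2.26 at T3, Ptgis near 0 at both times, and the glia list at 4.24 and 2.92.

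The same comparison 3 h after manipulation rested on shallow IgG libraries, and only Ptgs1 and Ptgis passed the filter. Ptgs1 was lower in HA, 1 of 2 members tested, against 21.9% of 7200 genes tested in either direction and 10.2% in the lower one. Its levels were 37.6, 38.1 and 31.1 CPM in the HA T3 libraries of animals 1, 3 and 4 and 170.2, 217 and 169 CPM in their IgG libraries. The log2 fold change was -2.26 (SE 0.30, adjusted p = 4.4e-05, edgeR), with all 14 alternatives past the threshold (4.65e-11 to 0.00215). All HA values lay below all IgG values, as in 16.4% of the genes tested, and Ptgs1 was thus lower in HA in 6 of 6 animals over both times.

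Ptgis was at 60.6, 59.5 and 47.5 CPM in HA T3 and at 68.1, 54.3 and 60.4 CPM in IgG T3, and the groups overlapped (log2 fold change -0.04, SE 0.36, adjusted p = 0.954, edgeR). The ratio of its pooled counts was 0.923, with an interval of 0.614 to 1.44. A difference smaller than these limits was therefore not detectable at this depth.

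Ptgs2 had 15, 6 and 10 counts in HA T3 and 6, 0 and 23 counts in IgG T3, which is 12.3, 4.01 and 7.79 CPM against 68.1, 0 and 92.5 CPM. HA was lower in animals 1 and 4, whereas the IgG library of animal 3, with 92022 counts in total, held no Ptgs2 count, which allows up to 32.6 CPM. The ratio of pooled counts was 0.115 (95% counting interval 0.0668 to 0.197). Without a filter the log2 fold change was -2.69 (SE 0.51, adjusted p = 5.95e-06, edgeR, where 16.6% of all genes passed), but without the IgG library of animal 4 it was -1.80 and did not pass (adjusted p = 0.250). The exact permutation test on mean CPM gave p = 0.4.

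Ptger4 was at 4.91, 6.02 and 7.01 CPM in HA T3 and at 22.7, 10.9 and 16.1 CPM in IgG T3, the latter from 2, 1 and 4 counts. HA was lower in all 3 animals, as at T0, and the groups did not overlap, as for 12.5% of all genes in the table with HA below IgG. The ratio of pooled counts was 0.367 with an interval of 0.154 to 1.01, and without a filter the log2 fold change of -1.12 (SE 0.79, adjusted p = 0.375, edgeR) did not pass. Ptgds had 3, 7 and 4 counts in HA T3 and 0, 0 and 2 counts in IgG T3. The interval of its pooled ratio, 0.172 to 6.80, shows that neither direction could be resolved. Ptges had 3, 5 and 2 counts in HA T3 and no count in any IgG T3 library, and as 3 counts over that group correspond to more than the HA T3 level of 2.50 CPM, no fold could be given.

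The next comparison asked how the members changed in the glial pull-down 3 h after manipulation. Ptgis fell, 1 of 2 members tested, with 33.8% of all 9441 genes tested past the threshold and 15.1% in the lower direction. Its level went from 102, 136 and 92.0 CPM in HA T0 to 60.6, 59.5 and 47.5 CPM in HA T3, without overlap, as for 50.8% of the genes tested. The log2 fold change was -0.71 (SE 0.21, adjusted p = 0.0115, edgeR). The call was lost without the HA T0 library of animal 2 (adjusted p = 0.0696) or the HA T3 library of animal 4 (0.0842), and adjusted p ranged from 0.000566 to 0.0842 over 13 alternatives.

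In the IgG libraries Ptgis had almost the same change, from 79.9, 111 and 105 CPM at T0 to 68.1, 54.3 and 60.4 CPM at T3. The groups did not overlap here either, as for 26.0% of the genes tested, but the log2 fold change of -0.71 (SE 0.37, adjusted p = 0.289, edgeR) did not pass. The change in HA minus the change in IgG, tested as the interaction of antibody and time over all 12 libraries, was 0.09 (SE 0.41, adjusted p = 0.963, edgeR). Its sign depended on the scaling, with -0.26 when library totals were used.

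Genes of several marker lists fell in HA over the same interval. These lists were mesothelium (5 of 5 tested, median log2 fold change -3.02; summed level 196 to 226 CPM at T0 and 21.8 to 27.0 CPM at T3), fibroblasts (4 of 6, median -1.10; 881 to 1278 CPM and 287 to 474 CPM) and macrophages (3 of 7, median -1.01; 437 to 775 CPM and 210 to 351 CPM). Interstitial cells of Cajal, with 3 of 4 markers called higher by HA against IgG at T0, had 2 of 4 genes lower at T3 (median -0.49), and their sum went from 3011 to 4066 CPM at T0 to 1520 to 2105 CPM at T3. Epithelium had 2 of 6 genes lower (median -1.60; 74.9 to 303 CPM and 30.3 to 71.6 CPM) and smooth muscle 4 of 11 (median -0.27; 17340 to 26303 CPM and 13932 to 16034 CPM). In IgG the mesothelial sum went from 451 to 994 CPM at T0 to 86.9 to 133 CPM at T3, with 4 of 5 genes called. Bnc1, a mesothelial marker, was at 0 in all IgG T3 libraries. The other lists were less clear in IgG, where 1 of 6 fibroblast genes (median -0.66) and 1 of 5 epithelial genes (median -1.24) were called lower. Of the macrophage genes 0 of 5 were called (median -0.72), and of the smooth muscle genes 0 of 11 (median -0.01). Genes of interstitial cells of Cajal had a median of 1.09 in IgG, with 0 of 3 called. The part of these lists in the fall of Ptgis was not tested.

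Ptgs1 in HA went from 40.8 to 62.0 CPM at T0 to 31.1 to 38.1 CPM at T3. The groups did not overlap on the CPM scale, as for 50.8% of the genes tested. With TMM scaling the log2 fold change was -0.25 (SE 0.23, adjusted p = 0.422, edgeR) and did not pass. Scaling by library totals moved the median of all genes in this comparison from -0.02 to -0.29. In IgG, Ptgs1 went the other way, from 92.7 to 129 CPM at T0 to 169 to 217 CPM at T3. The IgG groups did not overlap either, as for 26.0% of the genes tested. Yet the log2 fold change of 0.69 (SE 0.30, adjusted p = 0.206, edgeR) did not pass after correction.

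For Ptgs1 the change in HA minus that in IgG was -0.85 on the log2 scale (SE 0.37, adjusted p = 0.415, edgeR), beside a median of 0.18 over all genes (-0.18 with library totals). None of the 5 members tested passed the interaction test, of 10314 genes of which 0.330% passed. DESeq2 gave an adjusted p for Ptgs1 (0.1295) and Ptgis (0.981) only, and called neither. In IgG T3 against T0, where 5.46% of 5219 genes passed, 0 of 2 members did, and 0 by DESeq2.

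Ptgs2 in HA was at 3.46, 2.24 and 0.697 CPM at T0 and at 12.3, 4.01 and 7.79 CPM at T3. Every T3 library lay above every T0 library, as in 12.7% of all genes in the table. The ratio of pooled counts, 31 of T3 over 15 of T0 after scaling to the totals, was 3.75 (95% counting interval 1.97 to 7.48). The exact permutation test gave p = 0.1, the smallest that 3 against 3 allows, and without a filter the log2 fold change was 2.15 (SE 0.58, adjusted p = 0.00711, edgeR, where 25.5% of all genes passed). In the fit of all 12 libraries the adjusted p was 0.0355.

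Of 7 neutrophil and monocyte markers 3 were in the table, and their sum was 1.39 to 5.59 CPM in HA T0 and 18.1 to 116 CPM in HA T3, and 8.53 to 17.1 CPM in IgG T0 and 21.7 to 249.6 CPM in IgG T3. The higher sums at T3 came from S100a8 and S100a9, both at 0 in IgG T0. The monocyte marker Ccr2 had a lower mean at T3, at 1.52 CPM against 2.79 CPM at T0 in HA and 3.78 CPM against 12.8 CPM in IgG. These means rest on 6 against 18 counts in HA and 1 against 26 in IgG. The libraries overlapped in both pull-downs, so a change of Ccr2 was not resolved. Of 10 neuron markers tested in HA, 4 were higher and 0 lower at T3 (median 0.52), and the list summed to 1098 to 1297 CPM at T0 and 1220 to 2142 CPM at T3. The part of these cell types in the Ptgs2 values was not tested.

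Leaving out 1 HA library at a time, Ptgs2 passed the filter in 4 of 6 fits, with adjusted p between 0.00420 and 0.0390 (edgeR). The fits without a result were those that left out HA T3 animal 1 or animal 4. These libraries held its highest HA values, 12.3 and 7.79 CPM, so the omissions most able to weaken the rise could not be tested. In the other fits Ptgs2 passed the filter by these T3 libraries, the group where it was high. The adjusted p of those fits is therefore no added support for the rise. In IgG the Ptgs2 values were 30.9, 29.1 and 13.2 CPM at T0 and 68.1, 0 and 92.5 CPM at T3, which overlapped. The ratio of pooled counts was 3.33 (2.01 to 5.41), and without a filter the log2 fold change of 1.29 (SE 0.54, adjusted p = 0.182, edgeR) did not pass, where 4.03% of all genes did. Without the IgG T3 library of animal 4 it was 0.44, and the exact permutation test on all IgG libraries gave p = 0.4.

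The change of Ptgs2 in HA minus that in IgG was 0.76 (SE 0.91, adjusted p = 0.825, edgeR), so that a change particular to the glial pull-down was not resolved. This value rested on single libraries, with 1.70 without the IgG T3 library of animal 4, 0.22 without the HA T0 library of animal 4 and 0.22 to 1.70 over all omissions of 1 library. It was 0.016 without the 2 shallowest libraries, and none of these fits passed.

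Ptges in HA had a pooled ratio of T3 over T0 of 2.59 with an interval of 0.891 to 8.03, and its libraries overlapped. Ptgds had a ratio of 0.565 (0.286 to 1.05) and Ptger4 one of 1.06 (0.614 to 1.80). In IgG the Ptger4 ratio was 0.947 (0.357 to 2.14). Without a filter none of these genes passed in either time comparison (adjusted p 0.185 for Ptges, 0.468 for Ptgds and 0.601 for Ptger4 in HA, edgeR).

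Both cyclooxygenases were counted over a window of the same length at the 3′ end of the gene, so the share of Ptgs2 in their summed counts can be read within a library. In HA T0 it was 6.34% in animal 1, 3.48% in animal 2 and 1.68% in animal 4. In HA T3 it was 24.6%, 9.52% and 20.0% in animals 1, 3 and 4. The group means were 3.83% ± 2.35 and 18.0% ± 7.72 (SD, n = 3), and the groups did not overlap.

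In IgG T0 the share was 25.0%, 18.5% and 10.4%, a mean of 17.9% ± 7.33. In IgG T3 it was 28.6% and 35.4% in animals 1 and 4, and 0 of 20 counts in animal 3, for which the exact (Clopper-Pearson) 95% interval reached 16.8%. HA T0 had the lowest mean share of the 4 groups, and its libraries overlapped neither HA T3 nor IgG T0. No test was run on the shares.

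**Figure D3:**
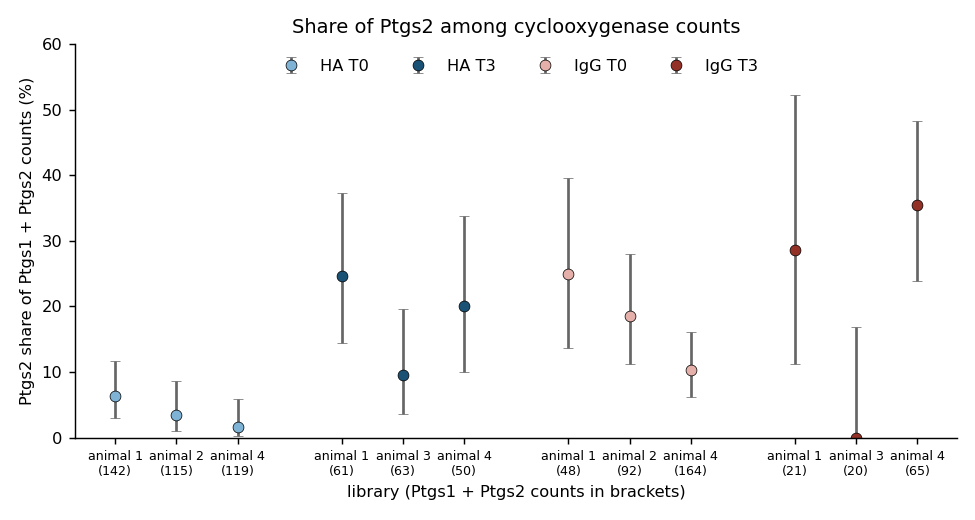
Share of Ptgs2 in the summed counts of Ptgs1 and Ptgs2 (vertical axis, %) in each library, with exact 95% binomial intervals and the summed counts in brackets. The 3 HA T0 libraries lie between 1.68% and 6.34% and the 3 HA T3 libraries between 9.52% and 24.6%, while the IgG T3 libraries range from 0% to 35.4%.

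Ordered by mean level, Ptgs1 was highest in IgG T3 (186 ± 27.6 CPM), followed by IgG T0 (112 ± 18.0), HA T0 (51.3 ± 10.6) and HA T3 (35.6 ± 3.90, SD, n = 3 each), and no neighbours in this order overlapped. Ptgs2 was highest in IgG T3 (53.5 ± 48.0 CPM) and IgG T0 (24.4 ± 9.77), which overlapped, then HA T3 (8.03 ± 4.14) and HA T0 (2.13 ± 1.38). Ptger4 was at 17.1 ± 4.51 CPM in IgG T0, 16.6 ± 5.93 in IgG T3, 5.98 ± 1.05 in HA T3 and 5.74 ± 1.06 in HA T0, with overlap within each antibody and none between them. At a single time, all HA values lay below all IgG values in 20.1% of the genes tested at T0 and in 12.5% of all genes in the table at T3.

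For Ptgis the order followed time and not antibody. It was at 110.1 ± 23.2 CPM in HA T0 and 98.6 ± 16.6 in IgG T0, which overlapped, and at 60.9 ± 6.89 in IgG T3 and 55.9 ± 7.26 in HA T3, which overlapped as well. Ptges was at 4.44 ± 2.19 CPM in IgG T0, 2.45 ± 0.893 in HA T3 and 1.05 ± 0.546 in HA T0, each overlapping its neighbour, and at 0 in IgG T3. Ptgds was at 8.42 ± 3.68 CPM in IgG T0, 6.41 ± 2.94 in HA T0, 3.42 ± 1.14 in HA T3 and 2.68 ± 4.65 in IgG T3, all overlapping.

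Among 10314 genes, those whose log2 CPM followed each member most closely over the 12 libraries were found by Pearson correlation, as a description across libraries that share antibody, animal and depth. Ptgs1 was followed by Ryr3 (r = 0.96), a calcium release channel, Myom1 (0.96), a component of the sarcomere, Stambpl1, Dmpk and Usp16. Ptgs2 was followed by Syt1 (0.97), a calcium sensor of synaptic vesicles, Tnks2, Bdp1, Tug1 and Taf1d. Ptger4 was followed by Cdkn1b (0.94), a cell cycle inhibitor, Smarca1, Hoxb5, Scgn and Akap6.

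Ptgis was followed by Clu (0.92), a secreted chaperone, Lsm10, Tbxa2r (0.91), the thromboxane receptor, Taf6 and Cilp. Ptgds was followed by Rccd1 (0.95), Arhgdib, Mrps21, Mina and Rnasek, of which 3 remained among its closest 5 when library totals were used for scaling. The same number, 3 of 5, remained for Ptger4. Ptges was too low to be compared.

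The rest of the pathway was read from lists of 46 further genes of arachidonate release, terminal synthesis, transport and breakdown, reception, and the leukotriene branch, of which 28 were in the table. At T0, 23 were tested, and 5 were higher and 4 lower in HA, beside 16.0% and 14.4% of all genes tested. The median log2 fold change was -0.08. Low genes passed the filter by the pull-down where they were high, such as Pla2g4a by IgG and Slco2a1 by HA.

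Genes higher in HA came from 3 of the steps. Slco2a1, which carries prostaglandins into cells, was at 46.6 ± 10.4 CPM in HA T0 and 5.29 ± 6.12 CPM in IgG T0 (log2 fold change 3.07, SE 0.49, adjusted p = 0.000383, edgeR). The secreted phospholipase Pla2g5 (2.02, adjusted p = 0.00129) and the phospholipase and acyltransferase Pla2g16 (1.83, adjusted p = 0.0140), act in lipid release. Ptges2, a second prostaglandin E synthase, was 1.13 higher on the log2 scale (adjusted p = 0.0152), and Ptgr2, a reductase that breaks prostaglandins down, 0.94 higher (adjusted p = 0.0253).

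Lower in HA at T0 was Pla2g4a, the cytosolic phospholipase A2 that feeds the cyclooxygenases, with 3.40 ± 1.05 CPM against 15.1 ± 5.66 CPM (log2 fold change -2.02, SE 0.50, adjusted p = 0.00735, edgeR). The EP3 receptor Ptger3 (-1.90, adjusted p = 0.00199), the leukotriene C4 synthase Ltc4s (-1.46, adjusted p = 0.0212) and the reductase Ptgr1 (-1.25, adjusted p = 0.0397) were lower too. Slco2a1, Pla2g5, Pla2g4a and Ptger3 passed in all 13 alternatives. Calls were lost for Pla2g16 without the HA library of animal 4 (adjusted p up to 0.0588), for Ptges2 without that of animal 1 (0.0569), for Ptgr2 without the HA or IgG library of animal 4 (up to 0.118), for Ltc4s without HA animal 1 or 4 or IgG animal 4 (up to 0.127), and for Ptgr1 in 8 of 13 alternatives (up to 0.137). With the animal as a block, the cochaperone and prostaglandin E synthase Ptges3 was also called lower in HA (log2 fold change -1.56, adjusted p = 0.000108, against 0.0503 without the block, edgeR).

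**Figure D4:**
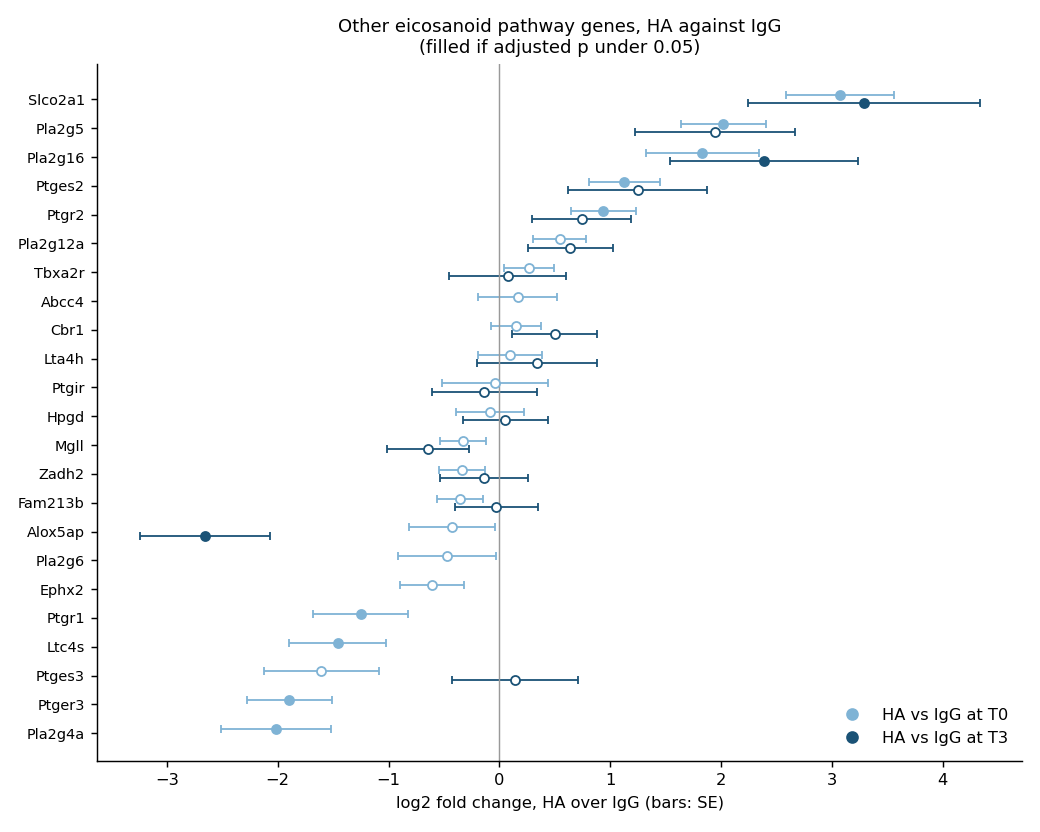
Log2 fold change of HA over IgG (horizontal axis, bars are SE) for the 23 other pathway genes tested at T0 (light) and, where tested, at T3 (dark), filled where the adjusted p was under 0.05. Slco2a1 is the highest at T0 with 3.07 and Pla2g4a the lowest with -2.02.

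At T3, 16 of these genes were tested, and Slco2a1 and Pla2g16 were higher and Alox5ap lower in HA, beside 11.8% and 10.2% of all genes tested. Each of these passed the filter by the pull-down where it was high, Alox5ap by IgG and the others by HA. Their number therefore cannot be read against all genes. Slco2a1 had 20 to 42 counts in the HA libraries and 0, 1 and 0 counts in IgG, a pooled ratio of 10.1 with a counting interval of 1.76 to 402 (adjusted p = 0.0302, edgeR), and it passed in 8 of 11 alternatives, but not without the IgG library of animal 1 or 4 (up to 0.230). Pla2g16 had 23 to 39 counts in HA and 2 over the IgG libraries, a pooled ratio of 5.09 with an interval of 1.37 to 42.6 (adjusted p = 0.0498, edgeR), and it passed in 3 of 11 alternatives. With the animal as a block Pla2g16 was not called (adjusted p = 0.0747), while Pla2g5 was (0.0410, against 0.0603 without the block, edgeR). Alox5ap, the activating protein of 5-lipoxygenase, was at 3.69 ± 0.86 CPM in HA T3 and 26.5 ± 5.35 CPM in IgG T3, the latter from 2, 3 and 6 counts. Its log2 fold change was -2.66 (SE 0.59, adjusted p = 0.00327, edgeR), and its call was lost without the IgG library of animal 4 (0.0767). No other pathway gene was called without HA animal 1, 3 or 4 (9 or 10 tested) or IgG animal 4 (21 tested).

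Within HA, 21 of the other pathway genes were tested for change with time, and 1 rose and 4 fell, beside 18.7% and 15.1% of all genes tested. The prostacyclin receptor Ptgir rose from 14.2, 17.9 and 11.8 CPM to 25.4, 30.8 and 32.7 CPM (log2 fold change 1.30, SE 0.28, adjusted p = 0.00117, edgeR). The thromboxane receptor Tbxa2r fell from 63.7, 73.2 and 67.9 CPM to 22.9, 19.4 and 21.0 CPM (-1.43, SE 0.22, adjusted p = 5.22e-05, edgeR). In neither gene did the groups overlap, as for 50.8% of the genes tested, and both passed in all 13 alternatives.

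For both receptors the pooled ratio of T3 over T0 in IgG went the same way as in HA. Ptgir had 32 counts over the IgG T0 libraries and 15 over those of IgG T3, a pooled ratio of 2.47 (1.24 to 4.70). It was too low for the test. Its IgG libraries overlapped, at 5.14 to 28.3 CPM at T0 and 11.3 to 43.5 CPM at T3. The T3 values came from 1, 4 and 10 counts, and the interval does not cover this spread between animals. Tbxa2r was at 55.5 ± 1.27 CPM in IgG T0 and 21.5 ± 1.30 CPM in IgG T3 (log2 fold change -1.39, SE 0.48, adjusted p = 0.113, edgeR). The IgG T3 level of Tbxa2r came from 2, 2 and 5 counts, with a pooled ratio of 0.377 (0.168 to 0.738). The HA minus IgG change was 0.15 for Ptgir (SE 0.67, adjusted p = 0.963) and 0.05 for Tbxa2r (SE 0.51, adjusted p = 0.989, edgeR).

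The other genes that fell in HA were the exporter Abcc4 (log2 fold change -0.98, adjusted p = 0.0232), Slco2a1 (-0.73, adjusted p = 0.0330) and Alox5ap (-1.15, adjusted p = 0.0395, edgeR). These 3 were less stable, passing in 7, 8 and 3 of 13 alternatives, and each lost its call without 1 of several single libraries, HA T3 of animals 1 and 4 among them. In IgG 0 of 8 other pathway genes passed, beside 5.46% of all genes tested, and 0 by DESeq2. In the interaction 0 of 24 passed, beside 0.330% of all genes tested, and 0 by DESeq2 where it gave an adjusted p.

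**Figure D5:**
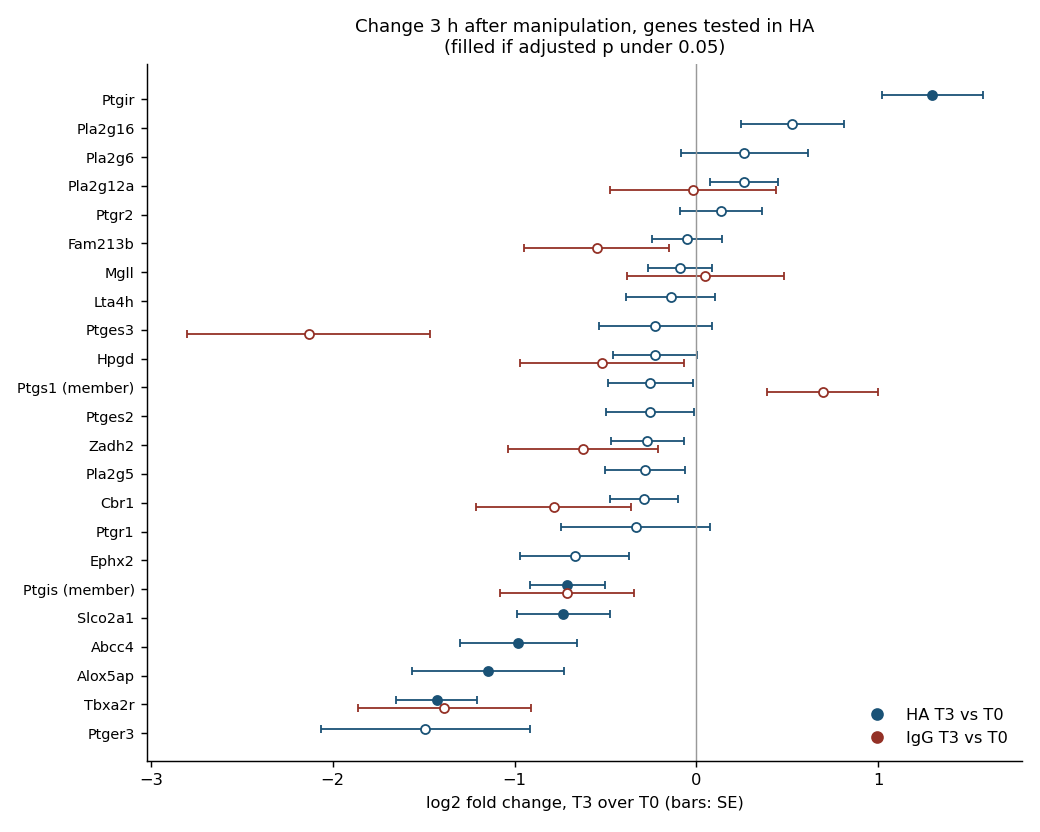
Log2 fold change of T3 over T0 (horizontal axis, bars are SE) in the HA libraries (blue) and, where tested, in the IgG libraries (red) for the 23 members and other pathway genes tested in HA, filled where the adjusted p was under 0.05. Ptgir is highest in HA with 1.30, Ptgis and Tbxa2r lie at nearly the same place in HA and IgG, and Ptgs1 lies at -0.25 in HA and 0.69 in IgG.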

How the data were processed

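RNA of 12 pull-downs was sequenced by a bulk adaptation of MARS-seq, which reads 3′ ends and tags molecules with UMIs. The authors trimmed reads with cutadapt, aligned them with STAR 2.4.2a to mm10, kept uniquely mapped reads and counted UMIs with HTSeq from 1000 bases upstream to 100 bases downstream of annotated 3′ ends (Gencode, given as version 10); DESeq2 1.26.0 is named for their normalisation. The deposited values used here are raw UMI counts per gene. The use of strand in counting and the sequencing pools of single libraries are not given in the sources used here, so overlapping genes are uncertain. The labels give a minimum of 5 reads in 1 sample, while 189 of 12975 genes had no count of 5 or more.

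Groups came from the sample titles. The test was that of edgeR 4.0.16 under R 4.3.3 (quasi-likelihood F-test, robust, TMM, filterByExpr; SE from the F statistic), on the 6 libraries of each of 4 comparisons of 2 groups and on all 12 for the interaction, with Benjamini-Hochberg adjustment over all genes and a threshold of 0.05. Scripts were tested on simulated data. CPM are counts scaled to library totals, and intervals cover counting error only. HA and IgG libraries with the same number come from one animal, since lysates were split, and their deviations from the group means correlated at 0.25 to 0.42 over 3645 genes, while pairs of different animals gave -0.26 to -0.01. Animals at T0 and T3 are different mice, so shared numbers there pair nothing. Alternatives were DESeq2 scaling (RLE), library totals, no filter, a 5-count filter, the DESeq2 1.42.0 Wald test, a replicate block, a fit of all 12 libraries, each library left out and, chosen after seeing the depth, the 2 shallowest libraries left out. The text names all members, pathway genes past the threshold and the 5 most similar genes of each member (Pearson's r of log2 CPM, prior count 2). Members and lists were chosen with earlier results of these data known. Gene positions are from GENCODE M21 (GRCm38). One gene of the marker lists is not reported here singly and remains in the sums and counts.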

Additional observations from a re-analysis of the deposited data

Results flagged for a closer look

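Ptges was set apart because its HA and IgG values lay on opposite sides at the 2 times. HA was below IgG in all 3 animals at T0 (2, 3 and 2 counts against 1, 4 and 5) and above it in all 3 animals at T3, where the IgG libraries held 0 counts and the HA libraries 3, 5 and 2. Ptges was too low for the main test, so the difference was not tested there. In the fit without a filter it did not pass (log2 difference 6.80, SE 2.79, adjusted p = 0.424, edgeR), and with the IgG group at 0 that fitted value is no bound.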

How the results depend on the processing

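Depth limits these results, since the IgG T3 libraries held 88136 to 248522 counts and 4 members were too low for the main test in at least 3 comparisons. Among the members, 2 calls were lost with single libraries left out, Ptger4 at T0 under 1 omission and Ptgis in HA over time under 2, and Ptgs1 and Ptgs2 at T0 and Ptgs1 at T3 kept their calls under every alternative. Members called at T3 (1) became 2, with Ptgs2 as the second, without a filter, with the 5-count filter, in the fit of 12 libraries and without the 2 shallowest libraries, and were 1 to 2 with single libraries left out. Members called in HA over time (1) became 2 without a filter, with the 5-count filter and in the fit of 12 libraries, and were 0 to 2 with single libraries left out. With single libraries left out, Ptgs2 passed the filter only by the T3 libraries where it was high.

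Other pathway genes called numbered 5 to 10 at T0 and 0 to 5 at T3 with single libraries left out, and 1 at T3 with DESeq2. In HA over time they were 9 with library totals, 2 with DESeq2, 3 with the replicate block, 2 in the fit of 12 libraries and 2 to 5 with single libraries left out. In IgG over time they were 1 without a filter, 1 with the 5-count filter, 1 with the replicate block and 2 in the fit of 12 libraries. The animal as a block in HA against IgG added Ptges3 at T0 (10 called) and exchanged Pla2g16 for Pla2g5 at T3 (3 called). The shared numbers as a block in the time comparisons lost Abcc4 and Alox5ap in HA and added Ptges3 in IgG. The block changed no call of a member: with it Ptgs1 was -1.19 and Ptgs2 -3.56 at T0, Ptgs1 -2.29 at T3 and Ptgis -0.58 in HA over time.

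Signs turned only for values that passed no test. Ptgds at T0 was -0.78 to 0.026 with single libraries left out, and its interaction -0.50 without the 2 shallowest libraries. Ptgis ran from -0.066 to 0.27 at T0 and from -0.16 to 0.14 at T3 with single libraries left out, and at T3 was 0.19 without a filter, 0.13 with the 5-count filter, 0.23 in the fit of 12 libraries and 0.094 without the 2 shallowest. Its interaction was -0.067 with RLE, -0.26 with library totals, -0.063 with DESeq2, -0.075 without the 2 shallowest and -0.067 to 0.20 with single libraries left out. Of the 5 genes closest to Ptgds and to Ptger4, 3 each remained with library totals. The cause was not tested.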
